A study of Mus musculus with 3 samples.

Results

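Chemokines are small secreted proteins that draw leukocytes along a gradient by binding receptors on the cell surface. The 6 chemokine genes described here, Ccl3, Ccl4, Ccl5, Ccl6, Ccl9 and Cxcl2, were taken by symbol from the 32285 genes of 3 mouse bone marrow single-cell libraries, and all 6 were present and counted. LSK is the gate of cells without mature lineage antigens that carry Sca-1 and Kit, LK the gate of lineage-negative cells that carry Kit, and TBM total bone marrow. With 1 library for each gate, differences between gates have no replicate check, and no test was possible. The marrow came from long bones, hips and spines, and the labels used here give neither strain, age nor number of mice, name no treatment, and do not state if the LK gate kept Sca-1 positive cells. Intervals in brackets are 95% intervals and cover counting error only.

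Ccl3 and Ccl5 are ligands of the receptor Ccr1, and Ccl4 is a close relative of Ccl3. Ccl3 is known in marrow for restraining the division of stem and progenitor cells. Ccl6 and Ccl9 are rodent chemokines of the myeloid lineage that act through Ccr1, and Cxcl2 is a ligand of Cxcr2 that recruits neutrophils and is induced by NF-kB. The members were followed along 5 marker genes. Elane encodes neutrophil elastase, a granule protease of granulocyte and monocyte progenitors. F13a1, coagulation factor XIII subunit A, marks monocyte progenitors and monocytes, and Ccr2 is the receptor of monocytes. Cpa3, a carboxypeptidase, marks mast cell and basophil progenitors as well as some early progenitors, and Retnlg, a resistin-like protein, marks maturing neutrophils.

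The files held 8968 barcodes, and 8745 cells remained after filters on genes, mitochondrial UMIs and doublets. LSK kept 1067 cells (11836820 UMIs, median 9688 per cell), LK 3461 cells (49936180 UMIs, median 13683) and TBM 4217 cells (21958139 UMIs, median 3347). A UMI is 1 counted transcript molecule, and levels (CPM) are a gene's UMIs summed over the cells named and scaled to 1000000 UMIs of all genes. The 3′ counts are not scaled by length. Gate genes followed the labels: the 81.3 CPM of Kit in LSK compared with 34.4 for LK and 7.61 for TBM, and Ly6a, which encodes Sca-1, was at 101, 7.75 and 30.9 CPM. In TBM, 99.2% of cells had a UMI of the neutrophil gene S100a8 and 96.9% one of the globin gene Hbb-bs, so neither gene marks a cell type in that library, and its chemokine levels are given beside those of cell types that should lack them. Libraries shared 6 to 25 cell barcodes by sequence, at most 0.722% of either library.

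Ccl5, Ccl9, Ccl6, Ccl3 and Ccl4 lie in this order on chromosome 11 (GRCm38, GENCODE M21), and Cxcl2 lies on chromosome 5 at 90903871 to 90905938 on the plus strand. Ccl5 spans 83525778 to 83530518, Ccl9 83572919 to 83578636, Ccl6 83587882 to 83593087, Ccl3 83647844 to 83649355 and Ccl4 83662584 to 83664683. Ccl4 is on the plus strand and the other 4 of the cluster on the minus strand. The sequence upstream of the start was searched for Ccl3, Ccl6, Ccl9 and Cxcl2 (4 of 6 matched), and that of Ccl4 and Ccl5 was not analysed here. Ccl9 and Cxcl2 are shown because Ccl9 had the largest ratio of LK over LSK among the members and Cxcl2 the largest of LK over TBM. Both are the 250 bases before the RefSeq start (GRCm38.p6), read 5′ to 3′ on the gene's strand, Ccl9 from chr11:83578637-83578886 (minus) and Cxcl2 from chr5:90903649-90903898 (plus). Capitals mark matches, on either strand, to GGG and CC with any 5 bases between them (the core of NF-kB sites) or to TGANTCA (AP-1).
Cxcl2: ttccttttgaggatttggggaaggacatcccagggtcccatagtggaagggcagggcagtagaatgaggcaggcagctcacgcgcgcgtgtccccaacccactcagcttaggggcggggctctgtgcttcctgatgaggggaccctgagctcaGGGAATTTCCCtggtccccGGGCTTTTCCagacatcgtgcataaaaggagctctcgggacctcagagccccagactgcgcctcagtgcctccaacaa
Ccl9: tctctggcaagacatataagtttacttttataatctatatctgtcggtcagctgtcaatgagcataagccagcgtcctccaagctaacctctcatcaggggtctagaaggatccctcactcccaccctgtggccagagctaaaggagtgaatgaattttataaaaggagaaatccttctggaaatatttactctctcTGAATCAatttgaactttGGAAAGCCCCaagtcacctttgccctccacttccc
Cxcl2 had 3 matches to the NF-kB core, at 97 to 88, 96 to 87 and 78 to 69 bases before the start. The first 2 overlap and lie on opposite strands. Ccl9 had 1 match to it at 35 to 26 bases and 1 to TGANTCA at 53 to 47 bases. Of 32536 regions of this length, 46.0% held the NF-kB core and 6.73% TGANTCA. None of the 4 regions held TTGCNNAA (C/EBP, 9.57% of regions) or GAGGAAGT (PU.1, 2.45%), and those of Ccl3 and Ccl6 held none of the 4 motifs. These are matches of letters and not measured sites.

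The progenitor gates and whole marrow carried different chemokine transcripts. Cxcl2 and Ccl4 were at their higher levels in LSK and LK, Ccl6 and Ccl5 in TBM, and Ccl9 in LK. Cxcl2 stood at 84.0 CPM [78.8 to 89.4] in LSK, 149 CPM [145 to 152] in LK and 7.38 CPM [6.29 to 8.61] in TBM. Ccl6 ran the other way, with 1.27 CPM [0.709 to 2.09] in LSK from 15 UMIs, 3.04 CPM [2.58 to 3.57] in LK and 451 CPM [442 to 460.1] in TBM. Ccl9 was low in LSK at 58.2 CPM [53.9 to 62.7], highest in LK at 324 CPM [319 to 329] and intermediate in TBM at 144 CPM [139 to 149].

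Ccl3 varied least between the gates, with 86.0 CPM [80.8 to 91.5] in LSK, 96.0 CPM [93.3 to 98.8] in LK and 49.0 CPM [46.1 to 52.0] in TBM. Its neighbour Ccl4 was at 110.0 CPM [104 to 116], 92.9 CPM [90.2 to 95.6] and 24.0 CPM [22.0 to 26.2]. Ccl5 was at 17 CPM [14.7 to 19.5] in LSK, 10.1 CPM [9.27 to 11.1] in LK and 141 CPM [136 to 146] in TBM. The closest neighbours in these orders were LSK and LK for Ccl3, with a log2 ratio of -0.16 [-0.26 to -0.06], and for Ccl4, with 0.24 [0.15 to 0.33]. These intervals cover counting error in deep libraries only, and the spread between mice is not known.

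**Figure D1:**
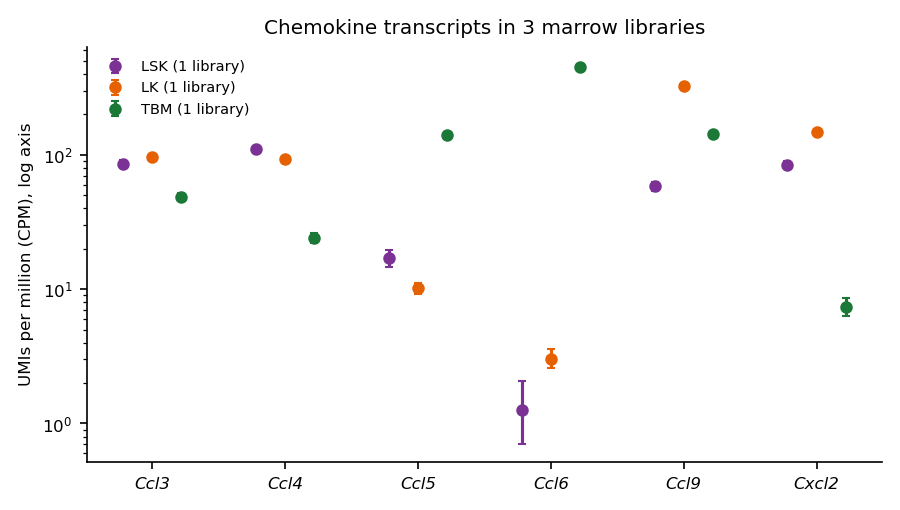
Level of each chemokine gene (x axis) in CPM on a log axis (y axis) in the LSK, LK and TBM libraries, 1 library per gate. Points are CPM and bars 95% exact Poisson intervals for counting error. Cxcl2 drops from 149 CPM in LK to 7.38 in TBM, while Ccl6 goes from 3.04 to 451.

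As log2 ratios of LK over TBM, Cxcl2 was at 4.33 [4.11 to 4.57], Ccl4 at 1.95 [1.82 to 2.08], Ccl9 at 1.17 [1.12 to 1.23] and Ccl3 at 0.97 [0.87 to 1.07]. Ccl5 was at -3.80 [-3.94 to -3.66] and Ccl6 at -7.21 [-7.45 to -6.98], the latter a 148-fold difference. Thus 3 of 6 members were at least 2-fold higher in LK, where 27.3% of the 13416 genes with at least 20 UMIs were, and 2 of 6 were at least 2-fold lower, where 16.8% of genes were. In LSK over LK, none was 2-fold higher (19.9% of genes) and 2 were lower (4.04% of genes): Ccl9 at -2.48 [-2.59 to -2.37] and Ccl6 at -1.26 [-2.14 to -0.50]. In LSK over TBM, which shares its libraries with the other ratios, Cxcl2 (3.51) and Ccl4 (2.19) were higher (36.9% of genes), and Ccl9 (-1.30), Ccl5 (-3.05) and Ccl6 (-8.48) lower (13.1% of genes).

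The median gene was itself shifted by 0.37 in LK over TBM, 0.34 in LSK over LK and 0.67 in LSK over TBM on the log2 scale. With size factors that center the median gene near 0, the genes called 2-fold higher and lower were 16.8% and 22.1% in LK over TBM, 13.1% and 6.38% in LSK over LK, and 18.2% and 20.9% in LSK over TBM. On that scale Ccl9 was at 0.80 and Ccl3 at 0.59 in LK over TBM, neither past 2-fold. Ccl4 in LSK over LK changed sign from 0.24 to -0.10, and Cxcl2 there went from -0.83 to -1.17. Ccl3 in LSK over TBM was at 0.81 by totals and at 0.12 by size factors.

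The members also differed in how they were spread over cells. In LK, Ccl9 was seen in 65.6% of cells [64.0 to 67.2], with a median of 6 UMIs where present and at most 33. Cxcl2 was seen in 36.9% of LK cells [35.3 to 38.6] and reached 10 or more UMIs in 6.88% of them, against none of 4217 TBM cells, where the highest count was 4. Ccl3 and Ccl4 were each seen in about the same share of LK cells, 34.5% and 34.0%. In LSK, however, Ccl3 was in 15.9% of cells [13.8 to 18.3] and Ccl4 in 36.2% [33.3 to 39.1].

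Depth differs between the libraries, so shares were also taken after thinning each cell to 2000 UMIs, which left out 9 LK and 1288 TBM cells. Ccl9 was then in 6.56%, 35.5% and 13.5% of LSK, LK and TBM cells, Cxcl2 in 8.06%, 16.5% and 1.33%, and Ccl6 in 0.187%, 0.550% and 24.3%. Ccl4 was in 14.6%, 13.6% and 1.98%, Ccl3 in 7.78%, 12.1% and 5.02%, and Ccl5 in 1.31%, 0.463% and 3.65%. For all 6 members the order of the gates was that of the levels in CPM.

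Ccl5 was among the most uneven members in each library. The 1% of cells with most Ccl5 held 89.1% of its UMIs in LSK, 94.5% in LK and 79.4% in TBM. For Ccl9 the same share was 4.84% in LK, and for Cxcl2 it was 14.7% there. For Ccl3 the top 1% held 13.7% of UMIs in LK but 62.6% in TBM, and for Ccl4 14.9% and 79.9%. A single TBM cell with 106 UMIs held 20.1% of all Ccl4 UMIs of that library.

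**Figure D2:**
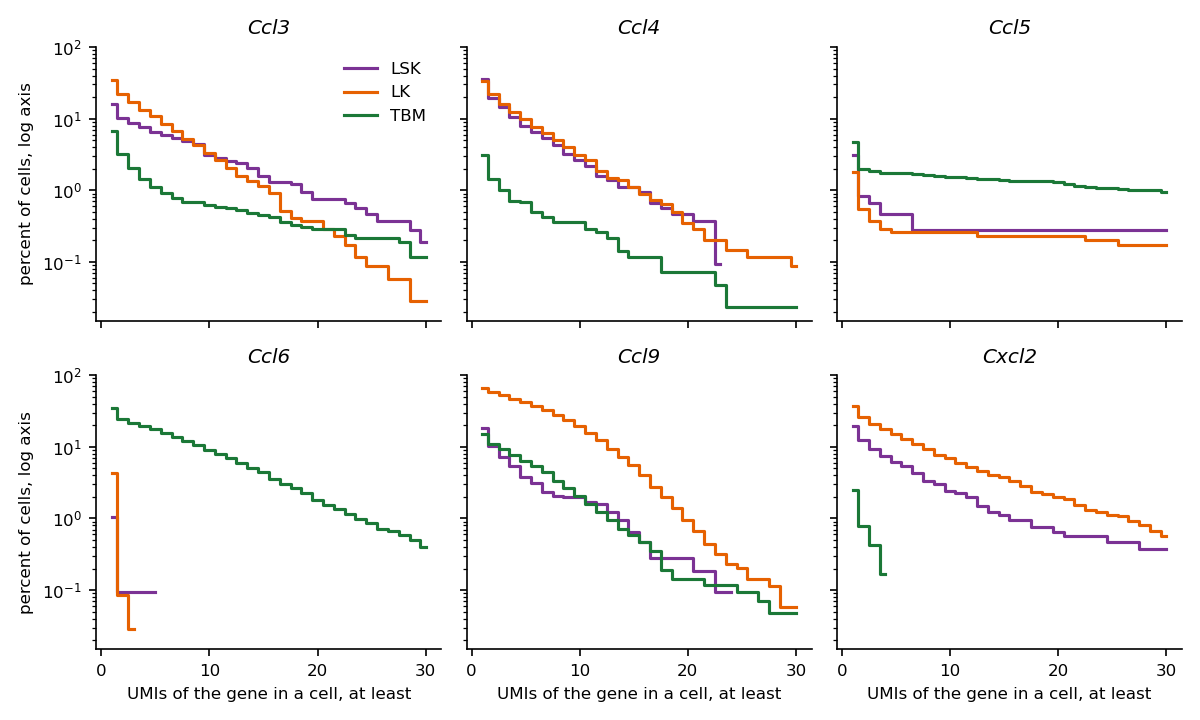
Percent of cells (y axis, log) with at least the number of UMIs on the x axis, for each gene and library, not thinned. Ccl9 in LK extends broadly, with 41.8% of cells at 5 UMIs or more, whereas Ccl5 in LSK and LK is a flat tail of 0.281% and 0.260% of cells at 10 UMIs or more.

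Within LK, Ccl9 went with Elane. Of the 1511 cells with at least 10 Elane UMIs, 96.8% had a Ccl9 UMI [95.8 to 97.6], and their level was 396 CPM [389 to 404], a log2 ratio of 0.87 over the other LK cells. The level was not highest where Elane was. Ccl9 was at 136 CPM in cells without Elane, 239.8 CPM at 1 to 9 UMIs, 510.0 CPM at 10 to 99, 364 CPM at 100 to 299 and 340.1 CPM at 300 or more. Ccl3 had the same shape, at 60.9, 80.5, 153, 105 and 76.2 CPM over these steps of Elane. Ccl4 had another, with 121, 122, 113, 67.1 and 48.0 CPM, lowest in the cells with most Elane. Cxcl2 stayed between 129.6 and 173 CPM over all 5 steps.

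Ccl6, though scarce in LK, was in 7.88% of Elane cells at 4.12 CPM [3.42 to 4.91], a log2 ratio of 1.51 [0.92 to 2.15] over other cells. It was the 1 member at least 2-fold higher there (4.58% of genes), and Ccl5 was the 1 member lower (14% of genes). The Ccl5 call rests on few cells, as 9 LK cells held 86.4% of its UMIs. Ccl5 was in 1.99% of Elane cells and 1.82% of all LK cells, and after thinning in 0.132% and 0.463%. Elane cells were also deeper, with a median of 19692 UMIs. After thinning, Ccl6 was in 0.596% of them, against 0.175% of cells without Elane and 0.657% of those with 1 to 9 UMIs, so the share of cells at equal depth was not higher than in the latter. With size factors Ccl9 joined Ccl6, at a log2 ratio of 1.12.

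Ccl3 had the largest ratio in Ccr2 cells of LK, and in F13a1 cells the largest but for Ccl5. It stood at 73.4 CPM in cells without F13a1, 121 CPM at 1 to 2 UMIs, 138 CPM at 3 to 9 and 157 CPM at 10 or more. In the 533 cells with at least 3 F13a1 UMIs it was at 143 CPM [136 to 150] and in the 211 cells with at least 2 Ccr2 UMIs at 144 CPM [133 to 156], and 65.3% and 68.2% of those cells had a UMI. Its log2 ratios of 0.79 and 0.66 over other cells stayed under 2-fold. Those of Ccl6 were 0.68 and 0.52, and those of Cxcl2 0.39 and 0.29. Ccl4 was lower in F13a1 cells, at 68.9 CPM with a log2 ratio of -0.53 [-0.65 to -0.42]. Ccl9 was present in 99.1% of Ccr2 cells, at 443 CPM.

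Among F13a1 cells 1 member was at least 2-fold higher (2.44% of genes) and none lower (11.6% of genes). Among Cpa3 cells 1 was higher (1.53% of genes) and none lower (4.4% of genes). Among Ccr2 cells none was higher (2.03% of genes) and 1 lower (8.99% of genes). In each case the called member was Ccl5. In Ccr2 cells it was in 1.42% of cells, against 1.82% of all LK cells, and after thinning in 0% against 0.463%. The 2 calls toward the higher level came from 1 LK cell with 134 Ccl5 UMIs, which passed the Elane, F13a1 and Cpa3 thresholds. Without it the log2 ratio of Ccl5 went from 1.04 to -0.76 in F13a1 cells and from 1.48 to -0.12 in Cpa3 cells.

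Ccl4 and Cxcl2 were higher in Cpa3 cells of LK than in other LK cells, but under 2-fold. Their log2 ratios were 0.56 [0.47 to 0.66] and 0.45 [0.37 to 0.53]. Ccl4 was at 126 CPM [119 to 133] in the 698 cells with at least 3 Cpa3 UMIs, and Cxcl2 at 189.9 CPM [181 to 199]. That Cxcl2 level was near those of F13a1 cells, at 182 CPM [174 to 190], and Ccr2 cells, at 178 CPM [166 to 192]. At 0, 1 to 2, 3 to 9, 10 to 29 and 30 or more Cpa3 UMIs, Cxcl2 was at 135, 160.4, 182, 189.7 and 222 CPM. In the 404 cells past the Cpa3 threshold alone, Cxcl2 reached 280.5 CPM [265 to 297] and Ccl4 172 CPM [159 to 185], the highest of the 13 classes of at least 50 cells. In the 280 cells past both the Cpa3 and Elane thresholds they were at 119.8 and 92.2 CPM. The 37 LK cells with UMIs of at least 3 of 7 basophil genes had Cxcl2 at 321 CPM [272 to 377], Ccl3 at 177 CPM and Ccl4 at 159 CPM, but for Ccl3 1 cell held 34.1% of the UMIs.

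These thresholds cut a range of counts. In LK, 234 cells lay between 0.5 and 1.5 times the Elane threshold, 300 near that of F13a1, 343 near that of Cpa3 and 463 near that of Ccr2. The 282 LK cells marked by erythroid progenitor genes gave the level in cells where these chemokines are not known as products. Ccl3 was there at 5.84 CPM [3.74 to 8.69], Ccl4 at 12.9 CPM, Ccl6 at 0.243 CPM and Ccl9 at 21.2 CPM [17 to 26.1] in 12.4% of cells. Cxcl2 was at 47.7 CPM [41.3 to 54.9] in 20.6% of cells, above Ccl9 in these cells although in LK as a whole Ccl9 had 324 CPM and Cxcl2 149.

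**Figure D3:**
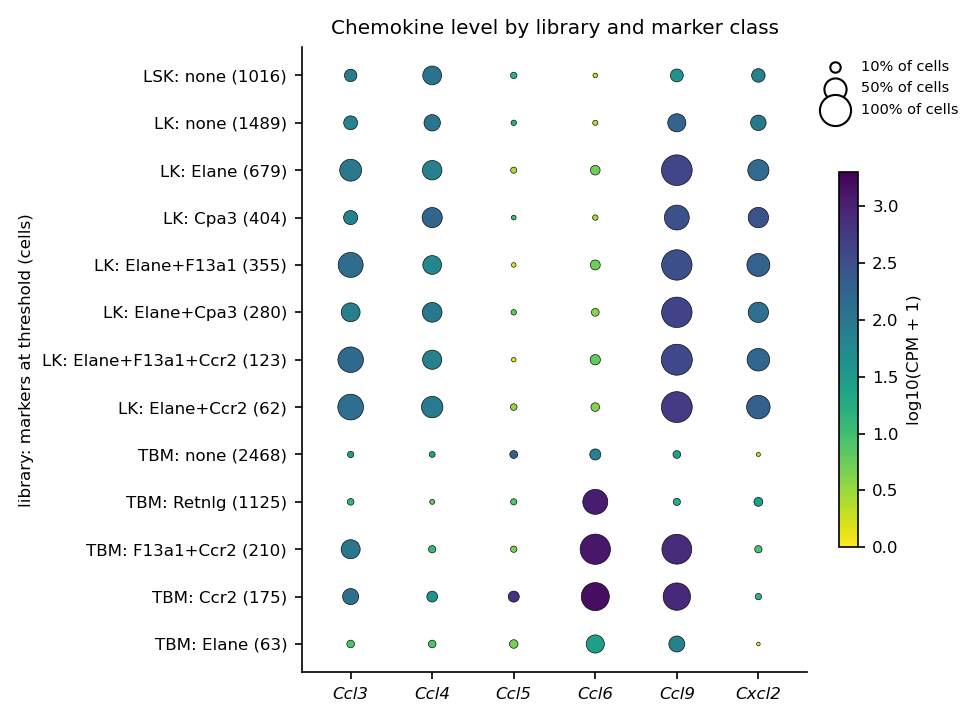
Chemokine genes (x axis) in the 13 classes of at least 50 cells, named by library and by the markers past their threshold, with the number of cells (y axis). Colour is log10(CPM + 1) and dot area increases with the percent of cells with a UMI. Ccl9 fills the LK classes with Elane, Cxcl2 peaks at 280.5 CPM in the LK class with Cpa3 alone, and Ccl6 fills the TBM classes with Retnlg or Ccr2.

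In LSK, 1016 of 1067 cells passed no marker threshold, and the members were split by marker lists instead, which overlap. The 688 cells with UMIs of at least 3 of 8 stem and multipotent progenitor genes had Ccl3 at 52.8 CPM [47.7 to 58.4], Ccl9 at 33.5 CPM [29.4 to 37.9] and Cxcl2 at 62.4 CPM [56.8 to 68.4]. The other 379 LSK cells had 139.8 CPM of Ccl3, 98.4 CPM of Ccl9 and 119 CPM of Cxcl2. Ccl4 differed little between them, at 102 CPM [94.4 to 109] and 124 CPM [114 to 134], in 35.3% and 37.7% of cells. The 29 LSK cells marked by monocyte genes already had Ccl9 at 351 CPM [309 to 397] and Cxcl2 at 231 CPM [197 to 269], near or above the LK level. Cells marked by megakaryocyte genes were low in Ccl3 in both gates, with 12.7 CPM in 173 LSK cells and 11.5 CPM in 218 LK cells, and held Cxcl2 at 82.4 and 92.0 CPM.

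In TBM, Ccl6 was high in cells with Retnlg and in cells with Ccr2. It was at 941 CPM [916 to 966] in the 1198 cells with at least 5 Retnlg UMIs, in 64.1% of cells, and at 969.6 CPM [939 to 1001] in the 475 Ccr2 cells, in 86.1%. Along Retnlg it was at 367 CPM without a UMI, 254 CPM at 1 to 4, 183 CPM at 5 to 19, 1315 CPM at 20 to 99 and 1963 CPM at 100 or more. It was low in Elane cells, at 54.7 CPM [46.6 to 63.8], and was at 600.5, 330.2, 84.4, 22.8 and 26.5 CPM over the 5 steps of Elane. The 1462 TBM cells marked by B cell genes, a lineage not known for Ccl6, had 81.8 CPM in 9.17% of cells at a median of 1983 UMIs. Single cells among them had up to 28 Ccl6 UMIs. TBM cells marked by erythroid progenitor genes had 32.3 CPM [27.0 to 38.4], and those marked by T and NK genes 18.8 CPM [9.03 to 34.6].

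Ccl9 parted from Ccl6 in the neutrophil arm. It was at 788 CPM [746 to 832] in the 210 cells past both F13a1 and Ccr2 and at 862 CPM [803 to 925] in the 175 with Ccr2 alone, where Ccl6 had 1241 and 1531 CPM. In the 1125 cells with Retnlg alone Ccl9 had 16.7 CPM [13.1 to 20.9] against 1123 CPM of Ccl6. B cell-marked cells had 53.2 CPM of Ccl9 in 5.40% of cells, with up to 27 UMIs in a cell. Erythroid progenitor-marked cells had 7.26 CPM [4.87 to 10.4] in 4.57%, and T and NK-marked cells 111 CPM from 3 cells. The 16.7 CPM in 4.09% of the Retnlg class thus lay between the lowest and highest of these references. Over other TBM cells, the log2 ratio of Ccl9 was 3.80 [3.68 to 3.91] in Ccr2 cells, 2.60 [2.49 to 2.70] in F13a1 cells and -1.94 [-2.13 to -1.76] in Retnlg cells.

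Cxcl2 was low in TBM and mostly in cells with much Retnlg. Of 162 UMIs, 120 lay in Retnlg cells, at 21.2 CPM [17.5 to 25.3], a log2 ratio of 3.04 [2.52 to 3.58]. The level was at 2.34 to 3.67 CPM below 20 Retnlg UMIs, 32.3 CPM at 20 to 99 and 42.2 CPM at 100 or more. B cell-marked cells had 3.26 CPM, and the 460 erythroid progenitor-marked and 147 T and NK-marked cells had no UMI. The 104 TBM cells with a Cxcl2 UMI had Retnlg at 19659.9 CPM, against 4313 CPM in the cells without one.

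Retnlg cells of TBM had 2 members at least 2-fold higher (5.52% of genes), Ccl6 and Cxcl2, and the other 4 lower (30.5% of genes). With size factors those background shares were 13.2% and 12.7%, and Ccl3 was at -0.77 and no longer past 2-fold. Ccr2 cells had 3 higher (15.1% of genes), Ccl3, Ccl6 and Ccl9, and none lower (13.1% of genes). F13a1 cells had Ccl9 higher (14.3% of genes) and Ccl4 and Ccl5 lower (14.3% of genes). Elane cells had none higher (10.9% of genes) and 5 lower (17.2% of genes), all but Ccl9.

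**Figure D4:**
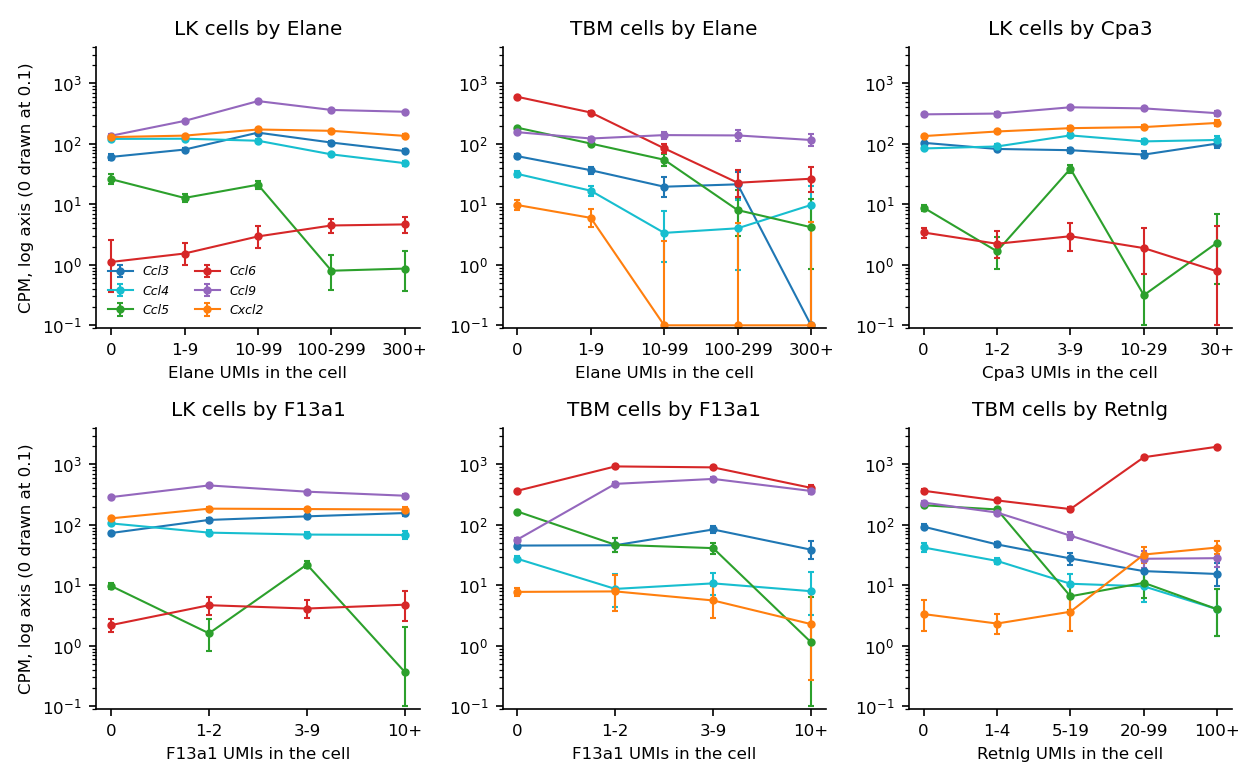
Level of each member in CPM (y axis, log, with 0 drawn at the lower edge) in cells grouped by UMIs of a marker (x axis), for LK and TBM. Bars are 95% Poisson intervals. Ccl9 and Ccl3 peak at 10 to 99 Elane UMIs in LK, and Ccl6 reaches 1963 CPM at 100 or more Retnlg UMIs in TBM.

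Ccl3 and Ccl4 of TBM were concentrated in few cells with basophil genes. The 37 cells with UMIs of at least 3 of 7 basophil genes (0.877% of TBM) had Ccl3 at 2795 CPM [2566 to 3039] in 81.1% of cells and Ccl4 at 1245 CPM [1094 to 1411] in 78.4%. They held 550 of the 1076 Ccl3 UMIs and 245 of the 528 Ccl4 UMIs of the library. The same cells had Ccl6 at 2211 CPM and Ccl9 at 1606 CPM, but Cxcl2 at 15.2 CPM from 3 UMIs of 1 cell. The 38 cells with at least 3 Cpa3 UMIs had 1009.8 CPM of Ccl3 and 483 CPM of Ccl4. B cell-marked cells had 5.95 and 3.65 CPM. Outside these, the F13a1 and Ccr2 class held Ccl3 at 99.4 CPM [84.6 to 116] in 36.7% of cells, and Ccl4 at 11 CPM in 4.29%.

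Ccl5 in TBM was concentrated in cells with T and NK genes. The 147 cells with UMIs of at least 3 of 11 such genes had 5217 CPM [5024 to 5415], and held 89.6% of the Ccl5 UMIs of the library. Of 64 TBM cells with at least 10 Ccl5 UMIs, 62 were T and NK-marked. Outside the marked cells the level was 15.0 CPM. The same cells had Ccl4 at 313 CPM and Ccl3 at 245 CPM, but 1 cell held 63.9% of these Ccl4 UMIs and 1 cell 39.2% of the Ccl3 UMIs. The 678 CPM of Ccl5 in the TBM class with Ccr2 alone came from 11.4% of its cells.

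In the progenitor gates Ccl5 was seen in 33 LSK and 63 LK cells, but most of its UMIs sat in 12 cells. In LSK 3 cells with 36, 52 and 67 UMIs held 77.1% of the Ccl5 UMIs, and in LK 9 cells with 12 to 134 UMIs held 86.4%. Of the 9 LK cells 1 was T and NK-marked, with 9 of the 11 genes. The other 8 LK cells and all 3 LSK cells had at most 2 of those genes. The LSK cell with 67 Ccl5 UMIs had 4 stem and multipotent progenitor genes, and that with 36 had 6. In the remaining cells the count was at most 6. The log2 ratio of LSK over LK, 0.74 [0.50 to 0.98], was -0.24 when each cell had equal weight.

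LK and TBM both contain cells past the Elane, F13a1, Cpa3 and Ccr2 thresholds, and these were compared directly after their levels had been seen. Of the members higher on the LK side, Cxcl2 had the largest ratio for each marker. In Elane cells it was at 158 CPM [153 to 162] in LK, from 4715 UMIs in 1511 cells, and no UMI was found in the 168 Elane cells of TBM among 2943417 UMIs, where 3 UMIs would be 1.02 CPM. With the TBM count set to that floor, the level was 155-fold higher in LK, a log2 ratio of 7.28. The lower end of the interval of this ratio was 6.98, so 155-fold is not a lower limit. In F13a1 cells Cxcl2 was at 182 and 4.66 CPM, a log2 ratio of 5.29 [4.54 to 6.16], and in Ccr2 cells at 178 and 6.68 CPM, a ratio of 4.74 [4.18 to 5.36]. In Cpa3 cells it was at 189.9 and 8.58 CPM, with 3 UMIs on the TBM side and a ratio of 4.47 [2.92 to 6.75].

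Ccl4 was also higher on the LK side of Elane cells (73.6 against 5.10 CPM), F13a1 cells (68.9 against 9.98 CPM) and Ccr2 cells (80.3 against 29.8 CPM). Ccl3 was at 109 against 15.3 CPM in Elane cells, 143 against 70.9 CPM in F13a1 cells and 144 against 103 CPM in Ccr2 cells, where the log2 ratio of 0.48 became -0.21 with equal weight for each cell. Cpa3 cells went the other way, with Ccl3 at 77.7 CPM in LK and 1009.8 CPM in TBM. The 38 TBM cells had the basophil protease gene Mcpt8 at 14052 CPM, against 128 CPM in the Cpa3 cells of LK.

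Ccl6 was lower in LK in all 4, for example 4.30 against 753 CPM in F13a1 cells, a log2 ratio of -7.45 [-7.90 to -7.04]. In Elane cells it was at 4.12 against 54.7 CPM. The latter was below the 81.8 CPM of B cell-marked TBM cells. It was above the 32.3 CPM of erythroid progenitor-marked and the 18.8 CPM of T and NK-marked TBM cells. Ccl9 was at 396 against 134 CPM in Elane cells, but at 342 against 514 CPM in F13a1 cells and 443 against 608 CPM in Ccr2 cells. Members at least 2-fold higher and lower in LK numbered 4 and 2 in Elane cells (13.1% and 7.94% of genes), 3 and 1 in F13a1 cells (15.6% and 15.3%), 2 and 4 in Cpa3 cells (9.73% and 13.3%), and 2 and 2 in Ccr2 cells (15.8% and 18.3%). The 3rd higher in F13a1 cells, Ccl3 at 1.01, was at 0.95 with size factors. The 2 lower in Elane cells were Ccl5 and Ccl6, and 1 cell held 85.6% of the Ccl5 UMIs in the Elane cells of TBM. With equal weight for each cell, the lower count in F13a1 cells was 2, with Ccl9 at -1.05, and the higher count in Ccr2 cells was 1, with Ccl4 at 0.72.

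**Figure D5:**
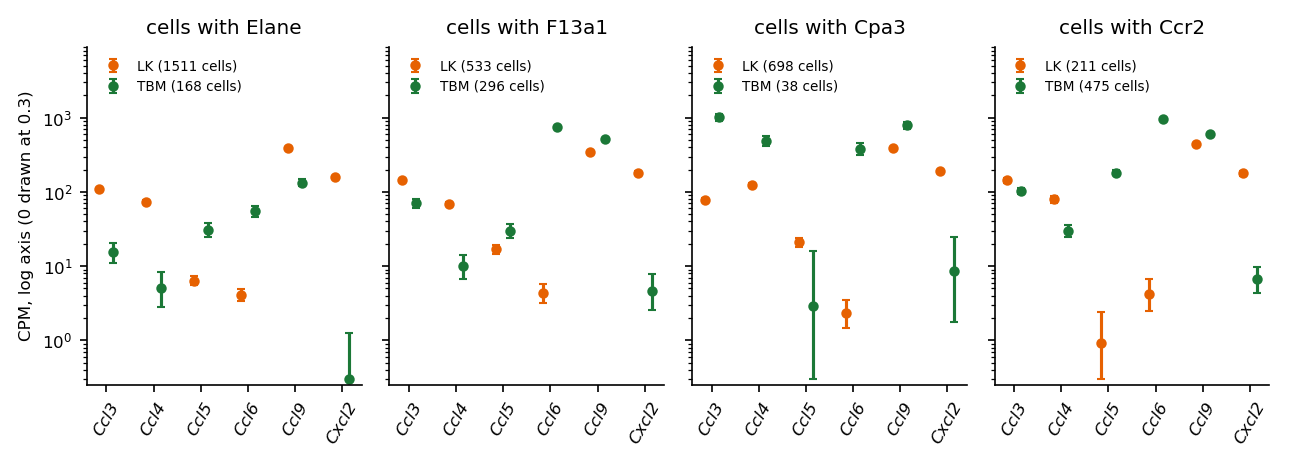
Level of each member (x axis) in CPM (y axis, log, with 0 drawn at the lower edge) in cells past the same marker threshold in LK and in TBM, with 95% Poisson intervals and cell numbers. Cxcl2 is at 158 to 189.9 CPM on the LK side and at 0 to 8.58 CPM on the TBM side of every marker.

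Other features moved with these differences. Elane cells of TBM held the later granule genes Fcnb at 844 CPM and Ltf at 480.1 CPM, against 5.19 and 0.10 CPM in LK, and Kit at 23.1 against 26.1 CPM. Ccr2, Cpa3 and F13a1 cells of TBM also had Ltf, at 281, 260 and 72.9 CPM, and Fcnb at 54.0, 17.2 and 37.3 CPM. Restricted to Elane cells with a Kit UMI (585 in LK, 43 in TBM), Cxcl2 was at 160.1 CPM and at no UMI [0 to 4.20]. Ccl3 was at 102 and 7.96 CPM there, and Ccl9 at 398 and 164 CPM. A list of 22 immediate early and NF-kB response genes, which handling of cells is known to induce, had 6535 CPM for LSK, 4429 for LK and 2052 for TBM. In Elane cells it was at 3019 CPM in LK and 932 CPM in TBM. Of its 20 measured genes, 11 were at least 2-fold higher in LK (13.1% of all genes) and none lower (7.94% of all genes). Nfkbia, an NF-kB target that encodes its inhibitor, was at 464 and 88.7 CPM there. In erythroid progenitor-marked cells the list was at 4923 and 254 CPM and Cxcl2 at 47.7 CPM and no UMI. The part of any of these in the chemokine differences was not tested.

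Within LK the list was lower in Elane cells (3019 CPM) than in LK as a whole (4429 CPM). Against other cells, 14 of 21 genes were at least 2-fold lower (14% of all genes) and none higher (4.58% of all genes). Cxcl2 had a log2 ratio of 0.22 [0.15 to 0.29] there. The list was higher in Cpa3 cells, at 5654 CPM, where Cxcl2 and Ccl4 were high too. It was highest in the 37 basophil-marked cells, at 10515 CPM, where Cxcl2 had 321 CPM. LK cells with and without a Cxcl2 UMI had the list at 4382 and 4463 CPM, and cells with and without a Ccl9 UMI at 3624 and 7224 CPM.

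Members were often seen together. In LSK, 60.6% of Ccl3-positive cells also had Ccl4, against 31.5% of Ccl3-negative cells, and after thinning 32.5% against 13.1%. In LK the values were 48.3% and 26.5%, and 26.4% and 11.9% after thinning. Within Elane cells of LK, which are closer in depth, they were 44.0% and 32.4%. Cxcl2 and Ccl3 were less linked: 48.2% of Ccl3-positive LK cells had Cxcl2 against 31%, and 19.9% against 16.1% after thinning. For Ccl4 and Cxcl2 the thinned shares in LK were 15.5% and 16.7%. In TBM, 60.6% of Ccl3-positive cells had Ccl9 against 12.0% of the rest. No cell of any library had all 6 members, and 1 LSK, 24 LK and 1 TBM cell had 5. In LSK, LK and TBM, 42.5%, 21% and 56.1% of cells had none. These shares were not thinned and follow depth. LK cells with none had a median of 7386 UMIs, and those with 5 had 20635.

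Across the 13 classes, which share libraries and depth within a gate, Ccl4 and Cxcl2 had a Pearson correlation of log2(CPM + 10) of 0.83, Ccl3 and Ccl9 of 0.76, and Ccl4 and Ccl6 of -0.74. Of 10419 genes, those most like Ccl3 were Igsf8, Nup210 and Dpp9 (0.97, 0.97 and 0.96). For Ccl4 they were Prkdc, Tap2 and Noc2l (0.99, 0.98 and 0.97), and for Ccl9 Tent5a, Cox4i1 and Mfsd1 (0.96, 0.94 and 0.94). For Ccl5 they were Skap1, Xcl1 and Gimap4 (0.98 each). For Ccl6 they were Lilrb4a, Slfn1 and Xdh (0.99 each), and for Cxcl2 P2ry2, Snx4 and Ldha (0.95, 0.94 and 0.94). Several of these are scarce or confined to few classes, on which the correlation then rests. P2ry2 was at no more than 8.07 CPM in any class, and Slfn1 at 0 CPM in every LSK and LK class. Xcl1 was at 27.6 CPM in the TBM class with no marker and 57.5 CPM in that with Ccr2 alone. In the other classes Xcl1 was at no more than 0.445 CPM. With log2(CPM + 1) the first gene was another for 4 members (Pvr for Ccl3, H2-Ab1 for Ccl5, Slfn1 for Ccl6 and Ifrd1 for Cxcl2), and 2 of the 3 genes were shared for each member but Ccl4, with 1.

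Of 31 other chemokine ligands listed, 30 were in the files and 13 had enough UMIs for LK over TBM. Of these 13, 8 were at least 2-fold higher (27.3% of all genes) and 3 lower (16.8% of all genes). The median log2 ratio of the 13 was 1.16 beside 0.37 for all genes. In LSK over LK 5 of 12 were higher (19.9% of all genes) and 3 lower (4.04% of all genes). Pf4, the platelet chemokine of the megakaryocyte lineage, had 57.5 CPM for LSK, 116 for LK and 19.8 for TBM, and the values below keep this order. Cxcl10, the interferon-induced Cxcr3 ligand, was at 7.35, 34.4 and 2.0 CPM, with 54.8 CPM in the LK class with Elane alone. Ccl27a was at 24.4, 9.65 and 4.60 CPM and Ccl25 at 10.1, 9.07 and 4.05 CPM. Ccl2, the ligand of Ccr2, was at 5.74, 6.63 and 8.02 CPM, and at 55.8 CPM in the TBM class with F13a1 and Ccr2. Xcl1, a lymphocyte chemokine, was at 0.0845, 0.10 and 16.8 CPM.

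Most receptors were lower in the progenitor gates. Of 23 listed, 16 had enough UMIs for LK over TBM, with a median log2 ratio of -4.91. In LK 15 were at least 2-fold lower (16.8% of all genes) and 1, the atypical receptor Ccrl2, was higher (27.3% of all genes). In LSK over LK 1 of 8 was higher (19.9% of all genes), Ccr9, and 4 were lower (4.04% of all genes), Ccr1, Ccr2, Cxcr2 and Cx3cr1. Ccr1, the receptor of Ccl3, Ccl5, Ccl6 and Ccl9, had 0.338, 0.941 and 38.0 CPM (LSK, LK, TBM), and was at 121 CPM in the TBM class with Retnlg alone. Cxcr2, the Cxcl2 receptor, was at 0.929, 2.78 and 35.5 CPM, and at 149.9 CPM in the same class. Ccr2 was at 5.41, 17.1 and 141 CPM, Cxcr4 at 6.34, 5.19 and 66.5 CPM, Cx3cr1 at 0.169, 3.52 and 19.9 CPM, and Ccrl2 at 20.8, 20 and 6.97 CPM.

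Other genes near the members did not share 1 pattern. Within 100 kb, 15 counted genes were annotated and 8 had at least 50 UMIs. In the same order of gates, Wfdc21 had 0.338, 8.69 and 2827 CPM, and Wfdc17 had 45.5, 13 and 167 CPM. Taf15 (45.7, 43.2 and 24.3 CPM), Heatr6 (26.5, 23.3 and 19.5 CPM) and 1700020L24Rik (6.25, 46.3 and 63.8 CPM) varied less than Ccl6. Mmp28 and Wfdc18 stayed under 3 CPM, and Mthfd2l beside Cxcl2 was at 30.5, 22.4 and 4.51 CPM. Cxcl1, next to Cxcl2, had 3 UMIs in LK and none in LSK and TBM. The noncoding gene E230016K23Rik overlaps Ccl6 on the opposite strand with 23 UMIs in TBM. The strand setting of the counting is not given in the sources used here, so reads of the pair may not be separable.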

How the data were processed

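The authors deposited, for each library, a matrix of whole-number UMI counts without normalization. Per the submitters' processing notes, Cell Ranger 4.0.0 and mm10 were used, and the kit is 10x Single Cell 3′ v2 per the labels' protocols. Filters of 200 genes as a minimum and 10% mitochondrial UMIs as a maximum were applied, and Scrublet (scanpy 1.11.5, each library by itself) removed 79 of 8824 (3 LSK, 3 LK, 73 TBM). Doublets may remain where few were called. Whether any were removed before deposit is not given in the sources used here, and free RNA was not corrected. No clustering was done. Cells were classed by marker UMIs: 10 Elane, 5 Retnlg, 3 F13a1, 3 Cpa3, 2 Ccr2. A list-marked cell has UMIs of at least 3 genes of a list, and cells may be in several. The erythroblast and mature neutrophil lists marked 3411 and 3197 of 4217 TBM cells and were not used. Ratios are of summed UMIs scaled by totals, with exact conditional binomial intervals; CPM have exact Poisson and shares Clopper-Pearson intervals. A member is called at 2-fold with at least 20 UMIs over both sides. A count of 0 is set to a floor of 3 UMIs per group. Named genes were all members, the 3 genes most like each, the 6 ligands and 6 receptors with most UMIs, and neighbours within 100 kb with at least 50 UMIs. Ratios, intervals and thinning were tested on simulated counts. The members and lists were chosen with earlier results of these data known. Coordinates are GENCODE M21 (GRCm38, matched by identifier for 32158 genes). Python 3.11.15, numpy 2.4.6, scipy 1.17.1 and pandas 2.3.3 were used.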

Additional observations from a re-analysis of the deposited data

Results flagged for a closer look

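Some contrasts had opposite signs in LK and TBM, and none of these differences was tested. As log2 ratios of Elane cells over the other cells, Ccl3 was at 0.52 in LK and -1.83 in TBM, and Ccl6 at 1.51 and -3.23. Cxcl2 was at 0.22 and -3.06, the latter with 0 UMIs in the Elane cells of TBM set to the floor. The upper end of the interval of that Cxcl2 ratio in TBM was -2.75. For Ccr2 cells, Ccl4 was at -0.23 in LK and 0.39 in TBM, and Ccl5 at -3.56 and 0.46. With doubled marker thresholds the TBM values of the last contrasts were -0.71 for Ccl4 and -1.35 for Ccl5, and with markers per 10000 UMIs the LK value of Ccl4 was 0.15. For F13a1 cells, Ccl5 was at 1.04 in LK and -2.42 in TBM, the first of which rests on 1 cell. Both terms of these ratios come from different mixtures of cells in LK and TBM. A Kit UMI was in 37.6% of all LK cells and 2.87% of all TBM cells. The part of this in the signs was not tested.

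Members were also present in barcodes that the filters and the doublet call left out. In the 24 such LSK barcodes Cxcl2 was at 142 CPM from 12 UMIs. In the 99 of LK, Ccl3 was at 32.3 CPM, Ccl4 at 78.5, Ccl9 at 120.1 and Cxcl2 at 87.8. In the 100 of TBM, Ccl3 was at 27.2 CPM, Ccl5 at 151, Ccl6 at 562 and Ccl9 at 154.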

How the results depend on the processing

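No paired analysis was possible because each gate is 1 library, with no replicate to leave out. The counts of members below are given without the share of all genes called under the same alternative. They show how the calls moved and cannot be set against a general rate. The 3 library comparisons kept every count of members within 1.5 times the main one under all alternatives, except that 1 member (Ccl5) was higher in LSK over LK at a 1.5-fold threshold and 1 in place of 2 was lower with equal weight for each cell. Of 330 counts of members under alternatives 47 moved by more, and of 810 log2 ratios 12 past 2-fold changed sign, all of Ccl5, and 16 under 2-fold, among them Cxcl2 in Elane cells of LK (-0.02 with the threshold after thinning). Within LK, Elane cells had 2 members higher in place of 1 with size factors, equal weight, a 1.5-fold threshold or a halved marker threshold, and 2 lower at 1.5-fold. F13a1 cells had 3 higher at 1.5-fold, 0 without the top cell, with doubled or halved thresholds or with markers per 10000 UMIs, and 1 lower with doubled thresholds. Cpa3 cells had 0 higher with equal weight, without the top cell, with doubled thresholds, with markers per 10000 UMIs or after thinning, and 1 lower with doubled thresholds or after thinning. Ccr2 cells had 1 higher at 1.5-fold or with markers per 10000 UMIs, and 0 lower with doubled thresholds or markers per 10000 UMIs. Ccl5 in F13a1 cells of LK was at -0.20 with equal weight, -0.76 without the top cell, -4.66 with doubled thresholds and -0.19 with markers per 10000 UMIs. In Cpa3 cells it was at -0.12 without the top cell, -3.95 with doubled thresholds, -0.91 with markers per 10000 UMIs and -0.70 after thinning. Within TBM, F13a1 cells had 2 higher with stricter cell filters, halved thresholds or markers per 10000 UMIs, and 3 at 1.5-fold or after thinning. Retnlg cells had 1 higher with halved thresholds and 1 lower in place of 4 with markers per 10000 UMIs. Ccr2 cells had 5 higher with halved thresholds or markers per 10000 UMIs and 1 lower with doubled thresholds. Between the libraries, Ccl5 reversed to 2.61 in Elane cells with a Kit UMI and to -3.78, -4.27 and -1.56 in Cpa3 cells with doubled thresholds, markers per 10000 UMIs and after thinning. There, F13a1 cells had 2 lower in place of 1 with equal weight, without the top cell, with doubled or halved thresholds or markers per 10000 UMIs, and 3 at 1.5-fold. Ccr2 cells had 1 higher in place of 2 with equal weight, halved thresholds or markers per 10000 UMIs. Cpa3 cells had 1 higher in place of 2 with doubled thresholds, markers per 10000 UMIs or after thinning, and Elane cells with a Kit UMI 1 lower in place of 2. Apart from the top Ccl5 cell, the cause of these moves was not tested. Thresholds after thinning left too few F13a1 and Ccr2 cells in LK and were not run there, nor was the restriction to Kit for F13a1, Cpa3 and Ccr2 cells. At this depth 3 UMIs are 0.253, 0.0601 and 0.137 CPM in LSK, LK and TBM, the floor set for a count of 0 over a library. The comparisons of marker cells between libraries and the restriction to Kit were added after seeing the data.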
